A study of Canis lupus familiaris with 4 samples.

Results

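CC chemokine ligands are small secreted proteins named for a pair of adjacent cysteines. They signal through G-protein-coupled receptors on leukocytes and draw monocytes, lymphocytes, dendritic cells and other white cells along their gradients. In mammary tumours they are known chiefly for the recruitment of macrophages and T cells, and they can be made by tumour cells, stromal cells and leukocytes alike. The 10 genes described here, CCL2, CCL3, CCL4, CCL5, CCL7, CCL8, CCL13, CCL17, CCL20 and CCL28, were found on the array by their dog RefSeq mRNA accession. They were chosen with earlier results of these data known. Each had exactly 1 probe, so that 10 of the 43603 probes of the array, and 10 of the 35411 tested, belong to them. Each probe was printed as 1 spot.

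The study set mammary tumours of dogs labelled grade 3, the most malignant, against tumours labelled grade 1, the less malignant, on 4 two-colour Agilent arrays of 1 slide. On each array both grades were hybridised together. On 2 arrays, called the Cy5 pair here, the grade 3 RNA was labelled with Cy5, and on the other 2, called the swapped pair, with Cy3. Within each pair the arrays were labelled replicates 1 and 2. The labels call them biological replicates without saying which tumours or how many dogs they came from. The p-values below rest on the spread of the 4 arrays within the dye orientations, pooled in large part over all tested probes. That spread may be technical. The protocols in the labels, given alike for both grades, describe canine cancer cells grown in RPMI-1640 with serum, overlaid with sorted monocytes for at least 72 h and then separated by flow sorting into stained cancer cells and unstained macrophages. The titles name tumours. Whether the RNA came from tumour tissue or from such sorted cultures is therefore not settled, and neither age, breed nor sex is given here.

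All values below are ratios of grade 3 to grade 1 after each array had been normalized on its own probes. Median spot signals were used, background was corrected and a log2 ratio was formed. A gene was called at an adjusted p under 0.05 in a limma fit over all tested probes. Errors are the standard errors of that fit, which also holds a dye term. Its residual degrees of freedom were 2, against 7.50 for the prior taken from all tested probes. The dye term takes out the difference between the dye orientations, and the prior draws the spread of each probe toward that of all. For both reasons the errors do not show how far a gene's 4 ratios lay apart. The SD of the 4 ratios was 0.05 for CCL8 and 0.21 for CCL28, while the error of both was 0.05. The mean ratio of CCL28 was 0.13 on the Cy5 pair and 0.49 on the swapped pair. Depth on an array is signal over local background. Over the tested probes its median per array was 15.6 to 23.4 in grade 3 and 12.3 to 13.6 in grade 1, so the grade 3 channel was the brighter on every array before normalization, in either dye. The log2 ratios of the 4 arrays correlated across probes between 0.693 and 0.943, with the lowest correlation between the dye orientations. Probes are not independent replicates. On probes printed 5 times, the median SD of the log2 ratio between spots of one array was 0.04 to 0.05.

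Of the 10 genes, 8 were lower in grade 3, CCL28 was higher and CCL13 was not called. Of all tested probes 61.6% were called in either direction. The share of all tested probes called lower was 30.5%, and the share called higher was 31.1%. Among the 925 named genes tested, each by its brightest probe, 46.1% were called lower and 24.1% higher. The 8 genes were below 0 on all 4 arrays, as were 28.3% of tested probes. The median log2 fold change of the 10 was -0.93, against 0.0045 over all tested probes and -0.09 over named genes. CCL7, CCL17, CCL2 and CCL20 were called and at least 2-fold lower, as were 1.75% of tested probes and 6.38% of named genes. That count of 4 became 5 with the processed signals and 1 with median centring, with spike-in scaling or with marked local backgrounds as measured. It was 3 without replicate 1 of the Cy5 pair and 3 without replicate 2 of the swapped pair. In RNA of mixed cells, fewer cells of a type and less RNA per cell cannot be told apart.

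The fold changes are set in order here with their limma intervals, and no test between genes was run. CCL7 was the lowest, and its 95% interval (-1.93 to -1.69 on the log2 scale) did not overlap that of CCL17. Such an interval is not the range of the arrays: the CCL7 ratios reached from -1.96 to -1.55. CCL17, CCL2, CCL20, CCL8 and CCL5 followed with overlapping intervals from each to the next, between -1.09 and -0.89. The interval of CCL4 did not overlap that of CCL5, nor that of CCL3 the one of CCL4. The intervals of CCL3 and CCL13 overlapped, and that of CCL28 lay above CCL13. All of these are changes relative to the other probes of the array. The arrays also carry probes for spike-in controls, RNAs foreign to the dog. These 10 control probes averaged a log2 ratio of -0.67. By array the mean was -0.72 and -0.72 on the Cy5 pair and -0.78 and -0.45 on the swapped pair. When they were taken as the zero point, each array was shifted by its own value. The median over all probes then became 0.67 in place of 0.0045. On that scale CCL7, CCL17, CCL2, CCL20, CCL8 and CCL5 were called lower, CCL28, CCL13 and CCL3 were called higher and CCL4 was not called.

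**Figure D1:**
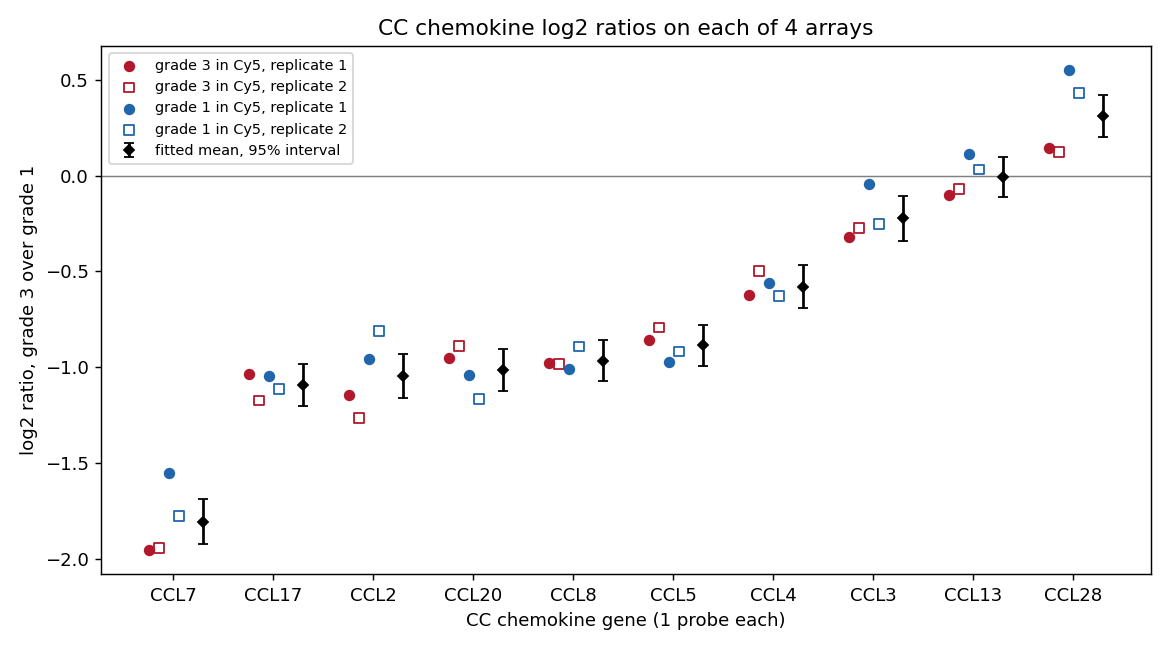
Log2 ratio of grade 3 over grade 1 for each of the 10 genes (x axis, ordered by fitted mean) on each array. Red points are arrays with grade 3 in Cy5, blue points arrays with grade 1 in Cy5, filled circles replicate 1 and open squares replicate 2; black diamonds are the limma means with 95% intervals. The 4 points of each of 8 genes lie below 0, those of CCL28 lie above 0 and those of CCL13 fall on both sides; with spike-in scaling CCL3, CCL4 and CCL13 turn above 0.

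**Figure D2:**
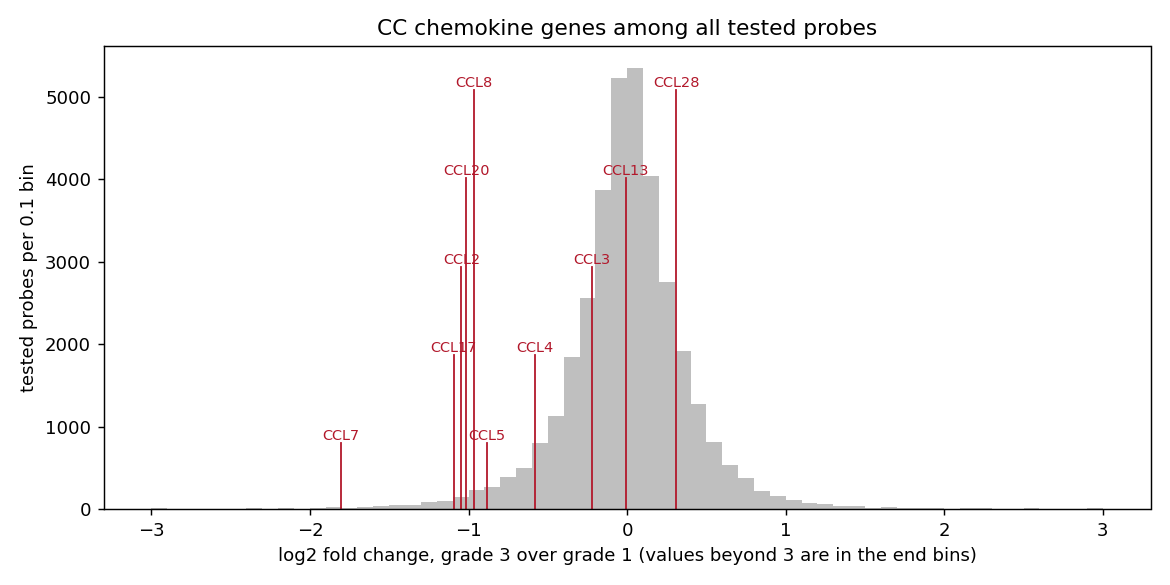
Number of tested probes (y axis) by log2 fold change of grade 3 over grade 1 (x axis, bins of 0.1 in grey, end bins holding all values beyond 3). Red lines mark the 10 genes, their heights varying only so that the names can be read: 0.277% of tested probes lie below CCL7, and CCL13 lies near the centre.

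The monocyte chemoattractant proteins CCL2, CCL7, CCL8 and CCL13 are close paralogs that signal through CCR2 and related receptors. In the RefSeq gene table of the assembly UU_Cfam_GSD_1.0 their genes stand next to each other in the order CCL13, CCL8, CCL7 and CCL2, with no other protein-coding gene between them. These neighbours had log2 fold changes from -1.81 to -0.01. Probe sequences were not used here, so whether a probe also binds a paralog's transcript was not tested.

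CCL7, monocyte chemoattractant protein 3, attracts monocytes and eosinophils. Its log2 ratio was -1.96 and -1.94 on the Cy5 pair and -1.55 and -1.78 on the swapped pair, so the fall was seen in both dyes and was deeper with grade 3 in Cy5. Its raw signal in grade 1 was 487 to 545 units, or 13.6 to 19.1 times the local background. In grade 3 the signal was 177 to 224 units, or 4.48 to 6.12 times background, and the grades did not overlap. CCL7 was 3.50-fold lower (95% interval 3.22 to 3.80; log2 fold change -1.81 ± 0.05, limma adjusted p = 4.81e-09). Among the 925 named genes it had rank 7 from the lowest.

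The size and the call of the CCL7 change depended on how local backgrounds were treated. With backgrounds that the scanner software had marked as outliers kept as measured, the array with grade 3 in Cy5, replicate 2, gave -0.24 in place of -1.94, and replicate 1 of the swapped pair gave -0.71 in place of -1.55. The other arrays gave -1.95 and -1.64. Of the 40 member spots, 1 had its own background replaced. The mean was then 2.20-fold lower and not called (adjusted p = 0.0619). With the software's own processed signals CCL7 was 4.87-fold lower. The offset of 50 units added here to every corrected signal pulls the ratios of dim spots toward 0, and the processed signals carry no such offset.

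CCL2, monocyte chemoattractant protein 1, is the best-known attractant of monocytes into tumours. Its log2 ratio was -1.14 and -1.27 on the Cy5 pair and -0.96 and -0.81 on the swapped pair. The spot was far above background in both grades, at 608 to 734 times background in grade 3 and 705 to 912 times in grade 1, and saturated on none of the arrays. Those ranges before normalization overlap. The normalized log2 level was 14.06 to 14.24 in grade 3 and 15.05 to 15.32 in grade 1, without overlap. Normalized levels are formed from the same log2 ratios, so their separation is no further evidence. CCL2 was 2.06-fold lower (log2 fold change -1.04 ± 0.05, limma adjusted p = 1.36e-07). With marked backgrounds as measured its 4 ratios lay between -1.25 and -0.81.

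CCL8, monocyte chemoattractant protein 2, acts on monocytes, T cells and mast cells. It gave nearly one value on every array, with log2 ratios of -0.98 and -0.98 on the Cy5 pair and -1.01 and -0.89 on the swapped pair. Signal was 44.1 to 75.4 times background in grade 3 and 62.2 to 79.2 times in grade 1. These raw ranges overlap, while the normalized log2 levels, 10.58 to 10.71 in grade 3 and 11.56 to 11.61 in grade 1, do not. CCL8 was 1.95-fold lower (log2 fold change -0.97 ± 0.05, limma adjusted p = 1.51e-07).

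CCL13, monocyte chemoattractant protein 4, attracts monocytes, eosinophils and basophils. Its log2 ratio was -0.10 and -0.07 on the Cy5 pair and 0.11 and 0.03 on the swapped pair, so its sign followed the dye. The signal was dim, at 99.5 to 152 units, 3.32 to 5.07 times background in grade 3 and 2.71 to 3.22 times in grade 1. The log2 fold change was -0.01 ± 0.05 (limma adjusted p = 0.90), with a 95% interval of -0.11 to 0.10. A change the size of that of CCL8 or CCL2 lay outside this interval. With spike-in scaling its value was 0.66.

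**Figure D3:**
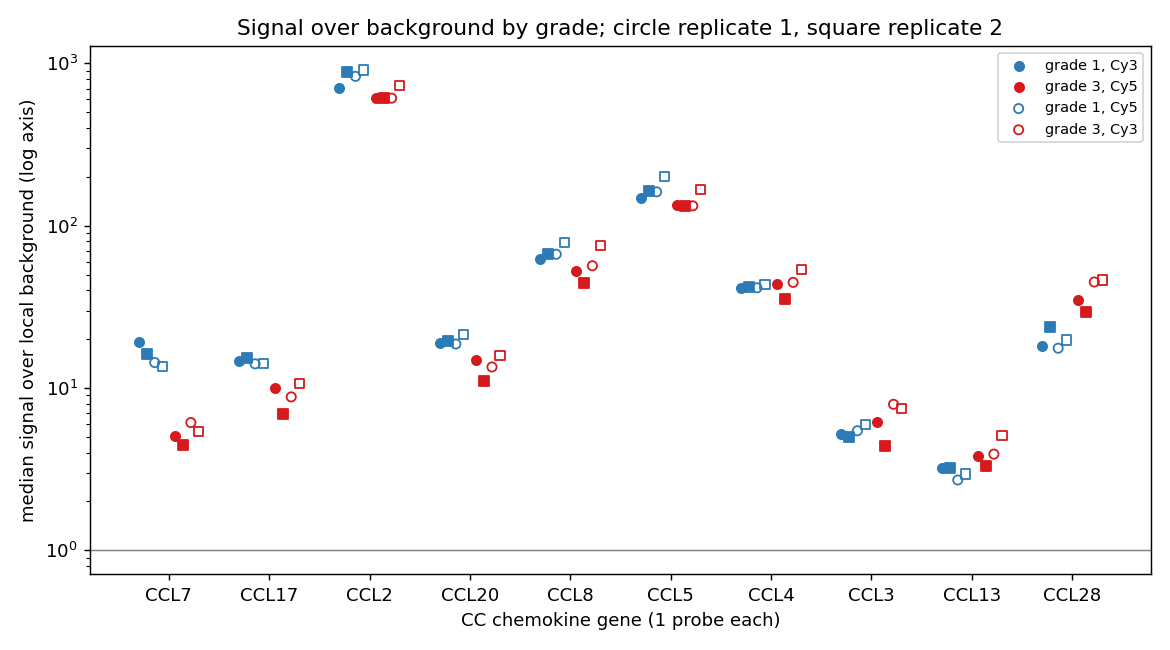
Median spot signal divided by local background (y axis, log scale) for each of the 10 genes, grade 1 in blue and grade 3 in red. Filled points are the arrays with grade 3 in Cy5, open points the swapped arrays, circles replicate 1 and squares replicate 2, all before normalization. CCL2 lies at 608 to 912 times background and CCL13 at 2.71 to 5.07; the grades do not overlap for CCL7, CCL17 and CCL20, lower in grade 3, or for CCL28 and CCL13, higher before normalization.

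CCL3, CCL4 and CCL5 attract T cells and macrophages and are made by activated macrophages, T cells and NK cells. In the same gene table CCL4 and CCL3 are neighbours, with 5 other protein-coding genes between CCL3 and CCL5. The 3 genes fell by unequal amounts, and none of their limma intervals overlapped. A test between the genes was not run.

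CCL5, known as RANTES, had log2 ratios of -0.86 and -0.79 on the Cy5 pair and -0.97 and -0.92 on the swapped pair. Signal was 133 to 168 times background in grade 3 and 148 to 202 times in grade 1. These ranges overlap. Normalized log2 levels, formed from the same ratios, were 11.84 to 12.07 in grade 3 and 12.75 to 12.86 in grade 1, without overlap. CCL5 was 1.85-fold lower (log2 fold change -0.89 ± 0.05, limma adjusted p = 2.38e-07).

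CCL4, macrophage inflammatory protein 1 beta, had log2 ratios of -0.63 and -0.50 on the Cy5 pair and -0.56 and -0.63 on the swapped pair. Before normalization the grades overlapped, at 35.4 to 53.8 times background in grade 3 and 41.0 to 43.7 times in grade 1. After each array had been scaled to its other probes, log2 levels were 10.17 to 10.21 in grade 3 and 10.71 to 10.83 in grade 1, without overlap. CCL4 was 1.49-fold lower (log2 fold change -0.58 ± 0.05, limma adjusted p = 5.32e-06), and 0.09 on the log2 scale and not called with spike-in scaling. With median centring it was 1.28-fold lower.

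CCL3, macrophage inflammatory protein 1 alpha, had log2 ratios of -0.32 and -0.28 on the Cy5 pair and -0.04 and -0.25 on the swapped pair. Replicate 1 of the swapped pair lay nearest 0. The spot was dim, at 175 to 246 units over both grades. Signal was 4.38 to 7.93 times background in grade 3 and 5.00 to 5.95 times in grade 1. Before normalization it was thus higher in grade 3 on all arrays but replicate 2 of the Cy5 pair. Normalized log2 levels were 7.65 to 7.86 in grade 3 and 7.90 to 8.04 in grade 1. CCL3 was 1.17-fold lower (log2 fold change -0.22 ± 0.05, limma adjusted p = 0.00415). The call was lost without replicate 2 of the swapped pair (-0.17, adjusted p = 0.0563) and with marked backgrounds as measured (-0.14, adjusted p = 0.222), and with spike-in scaling the value turned to 0.44. The table names CCL3L1 and CCL3L3 as synonyms of this gene, and transcripts of such copies cannot be told apart by 1 probe.

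CCL17, CCL20 and CCL28 attract lymphocytes and dendritic cells and are known for their roles in skin and mucosa. CCL17, also called TARC, is made by dendritic cells and macrophages and acts through CCR4 on T helper 2 and regulatory T cells. Its log2 ratio was -1.04 and -1.17 on the Cy5 pair and -1.04 and -1.12 on the swapped pair. Raw signal was 273 to 358 units in grade 3, at least 6.90 times background, and 401 to 541 units in grade 1, or 14.1 to 15.3 times background. The grades were thus apart before normalization. CCL17 was 2.13-fold lower (log2 fold change -1.09 ± 0.05, limma adjusted p = 8.24e-08). With marked backgrounds as measured the array with grade 3 in Cy5, replicate 2, gave -0.17 in place of -1.17, replicate 1 of the swapped pair gave -0.52 in place of -1.04, and the gene was 1.61-fold lower (adjusted p = 0.0459).

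CCL20 acts through CCR6 on immature dendritic cells and T helper 17 cells and is induced in epithelium by inflammatory cytokines. Its log2 ratio was -0.95 and -0.89 on the Cy5 pair and -1.04 and -1.17 on the swapped pair. Signal was 11.1 to 15.8 times background in grade 3 and 18.7 to 21.4 times in grade 1, without overlap. CCL20 was 2.02-fold lower (log2 fold change -1.01 ± 0.05, limma adjusted p = 1.26e-07). With marked backgrounds as measured the same 2 arrays moved, to -0.20 from -0.89 and to -0.63 from -1.04, and the gene was 1.65-fold lower (adjusted p = 0.0308).

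CCL28, the mucosa-associated epithelial chemokine, is made by epithelial cells, among them those of the mammary gland, and attracts CCR10-bearing plasma cells that secrete IgA. It was the 1 member higher in grade 3. Its log2 ratio was 0.14 and 0.12 on the Cy5 pair and 0.55 and 0.43 on the swapped pair. All 4 arrays lay above 0, but the swapped pair gave a mean of 0.49 against 0.13, and the fitted dye effect of -0.18 was the widest of the 10 genes. Signal was 29.5 to 46.2 times background in grade 3 and 17.6 to 23.7 times in grade 1, without overlap. Before normalization, however, the grade 3 channel was the brighter over all tested probes, and CCL13, which was not called, was likewise apart. CCL28 was 1.24-fold higher (log2 fold change 0.31 ± 0.05, limma adjusted p = 0.000326). With marked backgrounds as measured replicate 2 of the Cy5 pair turned to -0.06, and the mean was 0.23 and not called (adjusted p = 0.0592), and with median centring 0.51.

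**Figure D4:**
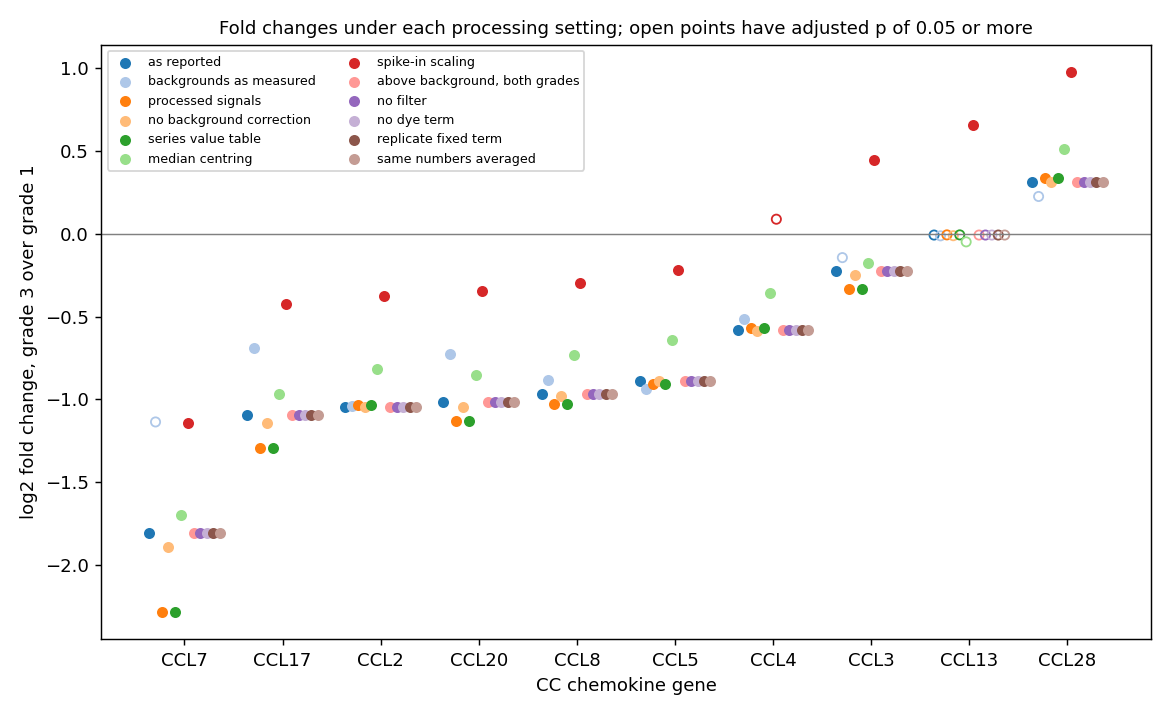
Log2 fold change of grade 3 over grade 1 (y axis) for each of the 10 genes under the setting reported and the alternatives that keep all 4 arrays (colours), with open points where the adjusted p was 0.05 or more. CCL7 ranges from -2.28 with the processed signals to -1.14 with marked backgrounds as measured, and spike-in scaling raises all genes, turning CCL3, CCL4 and CCL13 above 0.

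Further CC ligands were taken from a list of 14, of which 7 were on the array under a name and 5 were tested. Of these 3 fell and 2 did not pass the test, where 46.1% of all named genes tested were called lower. Their median log2 fold change was -0.29. CCL19, a CCR7 ligand that guides T cells and dendritic cells to lymphoid tissue, was 2.03-fold lower, with log2 ratios of -1.06 and -1.20 on the Cy5 pair and -1.01 and -0.81 on the swapped pair (limma adjusted p = 2.36e-07). CCL27, a skin chemokine that shares CCR10 with CCL28, had a log2 fold change of -0.30 and CCL24, an eosinophil attractant, of -0.29, and both turned above 0 with spike-in scaling (0.37 and 0.38) and were not called with marked backgrounds as measured. CCL21, the second CCR7 ligand, was at -0.16 and -0.53 on the Cy5 pair and 0.12 and 0.25 on the swapped pair and was not called (-0.08 ± 0.06, adjusted p = 0.297). Without replicate 1 of the Cy5 pair CCL21 was called at -0.18 (adjusted p = 0.0187), and with spike-in scaling at 0.59. CCL25 was at -0.05 ± 0.05 and not called (adjusted p = 0.427), but it was called at -0.21 with the processed signals, at -0.15 with median centring and at 0.62 with spike-in scaling. CCL1 and CCL26 stood well above background on no array, whichever grade was read, and their signal reached at most 1.93 and 1.63 times background.

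All 3 tested ligands of the CXC class were lower, beside 46.1% of named genes. CXCL8, the neutrophil attractant, fell by 4.95 on the log2 scale, more than any CC ligand measured. CXCL12, which binds CXCR4, was 1.61-fold lower and CXCL10, an interferon-induced ligand of CXCR3, 1.54-fold lower by the brighter of its 2 probes. With spike-in scaling neither CXCL10 (0.041) nor CXCL12 (-0.02) was called.

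Among receptors, CCR1, which binds CCL3, CCL5 and CCL7, had a log2 fold change of -0.36 and CCR4, the receptor of CCL17, of -0.21. CCR3 had -0.13 (adjusted p = 0.0415) at no more than 3.00 times background, and it was no longer called when any of 3 arrays was omitted (adjusted p = 0.134 to 0.157, all but replicate 1 of the Cy5 pair), without the filter on dim probes (0.0519), without a dye term (0.132) and with the replicate number as a fixed term (0.0587). With spike-in scaling CCR1, CCR3 and CCR4 turned above 0 (0.31, 0.54 and 0.45), and with marked backgrounds as measured none of these 3 was called in limma (adjusted p = 0.184, 0.596 and 0.220). ACKR3, which was also on the list but binds CXCL12, was at 0.01 ± 0.05 and not called, but at 0.25 and called with median centring and at 0.68 with spike-in scaling. CCR2, CCR6 and CCR10 were not among the named probes.

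**Figure D5:**
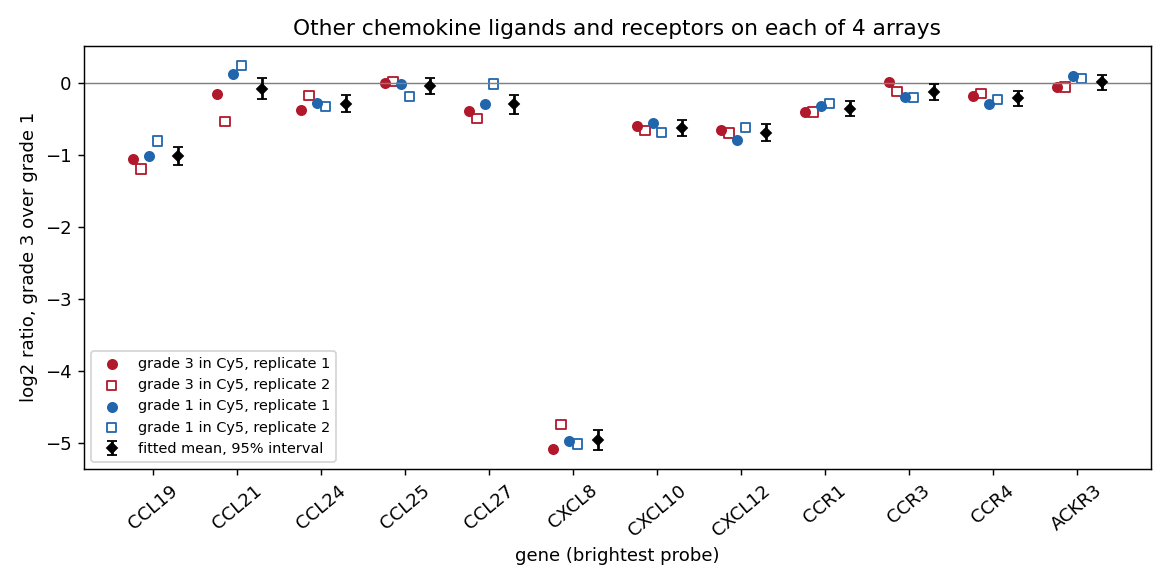
Log2 ratio of grade 3 over grade 1 (y axis) on each array for 5 further CC ligands, 3 CXC ligands and 4 receptors (x axis), with colours and symbols for the arrays as in the legend and black diamonds for limma means with 95% intervals. CXCL8 lies near -5, CCL19 near -1, and CCL21, CCL25 and ACKR3 have intervals that include 0; with spike-in scaling CCL21, CCL24, CCL25, CCL27, CXCL10, CCR1, CCR3 and CCR4 turn above 0.

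Cytokines and pathway genes known to induce CC chemokines formed another list. Of its 13 tested genes 10 were lower, 1 was higher and 2 were not called, with a median log2 fold change of -0.33. Among all named genes tested 46.1% were called lower and 24.1% higher. IL1B, a strong inducer of CCL2 and CCL20, was, in grade 3, well above background on no array and was at least 4.32-fold lower (limma adjusted p = 1.12e-09). For this floored value, grade 3 levels below the dimmest level still well above background on their array were raised to it. The floored value is an estimate and no lower limit. With marked backgrounds as measured IL1B was not called (limma adjusted p = 0.0937). TNF, the other classic inducer, was not called (0.12 ± 0.05, adjusted p = 0.0754). TLR2 was the 1 gene called higher (0.36 ± 0.07, adjusted p = 0.00202) but had -0.20 on the array with grade 3 in Cy5, replicate 2, and was not called without a dye term or with marked backgrounds as measured. NFKB1, encoding an NF-kB subunit, had -0.27, 0.40 with spike-in scaling and -0.03, not called, with median centring.

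Markers of leukocytes, which make and answer these chemokines, were also mostly lower, where 46.1% of named genes were called lower. Of 5 tested markers of monocytes and macrophages 4 were lower and CD80 was not called, with a median of -0.94 beside -0.93 for the 10 chemokines. The summed linear level of this list was 13129 to 14373 units in grade 3 and 27077 to 29157 in grade 1. FCGR1A, an Fc receptor gene, was 2.59-fold lower and CD86, a costimulatory ligand gene, 1.92-fold. Of 3 neutrophil markers all were lower, with sums of 14558 to 16636 units against 44530 to 47971, S100A8 2.94-fold and CAMP 3.08-fold. Of 8 T and NK cell markers 7 were lower (median -0.28, sums of 1244 to 1291 units against 1736 to 1901), KLRD1 2.65-fold and CTLA4 1.70-fold, and both B cell and plasma cell markers, MS4A1 (2.92-fold) and CD38 (1.39-fold), were lower, with sums of 1577 to 1828 against 2357 to 2705. With marked backgrounds as measured the calls of KLRD1, MS4A1 and CTLA4 were lost, and with spike-in scaling CTLA4 was not called (-0.10) and CD38 turned to 0.19. FOXP3, the regulatory T cell factor, was at most 2.57 times background, and CD14, CD68 and CSF1R were not among the named probes. The part of these cells in the chemokine values was not tested.

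Markers of other cell types did not share one direction. The counts below stand beside 46.1% of named genes called lower and 24.1% called higher. Of 7 tested markers of mammary epithelium 4 rose, 1 fell and 2 were uncalled. Their median was 1.18, with sums of 368155 to 479874 units in grade 3 against 46815 to 103690 in grade 1, most of them from milk protein genes. Of 4 fibroblast markers 3 were lower (median -0.44, sums of 305993 to 398429 against 477091 to 547293). Of 3 endothelial markers 2 were lower and 1 higher (median -0.30, sums of 35778 to 43279 against 44634 to 53098). Of 4 skeletal muscle markers 3 were higher and 1 lower (median 2.59, sums of 9147 to 9732 against 701 to 967). Their part in the chemokine values was not tested either.

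The genes most like the lowest and the highest member were sought among 914 other named genes, by the root mean square distance of the 4 log2 ratios. Nearest to CCL7 were IL18BP, which encodes an inhibitor of interleukin 18, at a distance of 0.11 (log2 fold change -1.74), the cytokine gene IL6 at 0.21 (-1.64) and the alkaline phosphatase gene ALPL at 0.21 (-1.63). Nearest to CCL28 were TGM1, a keratinocyte transglutaminase gene, at 0.06 (0.29), SNAI2, a transcription factor gene, and SLC35C1, a GDP-fucose transporter gene, both at 0.07 (0.35 and 0.28). These likenesses rest on 4 arrays of 1 comparison, and with marked backgrounds as measured IL6, TGM1, SNAI2 and SLC35C1 were not called.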

How the data were processed

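Scanner files came from Agilent Feature Extraction 10.7.3.1 (submitters' processing notes) and name the build canFam2. The deposited median signals and local backgrounds are intensity values, per the file headers. The deposited LogRatio and series value table hold log10 ratios of processed signals, and the table differed from LogRatio by at most 4.99e-06 once turned to grade 3 over grade 1. Direction came from the dyes in the labels.

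In R 4.3.3 with limma 3.58.1, local backgrounds marked as outliers (151 to 2352 per array and channel) were set to that channel's median on the array, followed by normexp (offset 50) and loess with control spots at weight 0. Outlier spots (11 to 39 per array) were left out and none was saturated. Of 43603 probes, 1648 were named through RefSeq accessions in the table of UU_Cfam_GSD_1.0. Its coordinates served only to put the genes in order for the statements on neighbours. The 35411 probes that stood well above background in at least 1 grade on all 4 arrays entered lmFit and eBayes with a grade and a dye term (residual degrees of freedom 2, prior 7.50). Tests were two-sided and p-values adjusted after Benjamini and Hochberg. Levels are log2 intensities after Aquantile, and on each array the levels of the 2 grades differ by the log2 ratio. A listed gene is shown by its brightest probe.

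Values are given for members, some receptors and further chemokines (1 item is not reported here), for the lowest, highest and brightest called genes of the immune lists and for the nearest genes by distance. TNF and FOXP3 were named after their values were seen. Members, lists and the treatment of marked backgrounds were chosen with earlier results of these data known. Simulated over 35376 probes of the grade comparison, 37 of 50 changes of 1.25-fold were recovered, as were 50 of 50 each at 1.5-fold, 2-fold and 4-fold, and 12 unchanged probes were called. The simulated noise was independent between probes and drawn from the limma fit itself, and far fewer probes were changed than were called here. The simulation therefore checks the code and does not measure how reliable the calls in these data are. The number of arrays limits the precision.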

Additional observations from a re-analysis of the deposited data

Results flagged for a closer look

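In 40 genes, the 10 CC chemokines and 30 others given with values or compared, the 4 log2 ratios were searched for an array far from the rest by Dixon's criterion, which chance passes in about 1 of 20 sets of independent values. None of the 10 chemokines passed. CTLA4, a T cell checkpoint gene, passed: the array with grade 3 in Cy5, replicate 2, stood at -0.57 on the log2 scale, while the other 3 arrays lay between -0.84 and -0.82.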

How the results depend on the processing

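The counts of 8 members lower and 1 higher held in limma under 12 of 15 alternatives, and the log2 fold changes of CCL2, CCL5, CCL8, CCL17 and CCL20 kept their direction and call under all 15. These 15 are not separate checks. The processed signals and the series value table hold the same ratios. Changing the probe filter, leaving out the dye term or adding a replicate block leaves each member's fold change as reported. Only the calls could change there. Without replicate 2 of the swapped pair 7 members were called lower. Leaving out 1 array gave 9094 to 10971 probes higher and 9005 to 10798 lower. With marked local backgrounds as measured, 2328 probes were called higher and 4418 lower, against 11029 and 10800 as reported. That setting called 6 members lower (CCL3 and CCL7 were lost) and 0 higher, with 7 and 1 at an unadjusted p under 0.05. It moved single arrays, as given for CCL7, CCL17, CCL20 and CCL28. Spike-in scaling called 32257 probes higher and 920 lower, and 6 members lower and 3 higher. It turned CCL3 (0.44), CCL4 (0.088), CCL13 (0.66), CCL21 (0.59), CCL24 (0.38), CCL25 (0.62), CCL27 (0.37), CXCL10 (0.041), CCR1 (0.31), CCR3 (0.54), CCR4 (0.45), NFKB1 (0.40) and CD38 (0.19). Median centring left 8 and 1 members called, and 63.9% of called probes were then higher, against 50.5%. CCL13 was not called elsewhere, with values from -0.05 to 0.01. The cause of these differences was not tested. The replicate numbers share no stated source, and deviations of same-numbered arrays correlated at -0.09. With the replicate block as a fixed term 10922 probes were higher and 10640 lower, and with same-numbered arrays averaged 11620 and 11272, with 8 members lower and 1 higher in both. The mean of a gene's probes changes no member, as each has 1 probe. Signal over background limits the dim genes, among members CCL13 (2.71 to 5.07), CCL3 (4.38 to 7.93) and, in grade 3, CCL7 (4.48 to 6.12).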
